A study of Mus musculus with 3 samples.

Results

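The genes described here encode the machinery of oxidative phosphorylation, from both the mitochondrial and the nuclear genome. Every row of the expression matrices whose symbol began with mt-, Nduf, Uqcr, Atp5 or Cox4 to Cox8 was taken, and symbols holding -ps were left out. This gave 102 genes of 32285 rows. The 13 mt- genes are the protein-coding genes of the mitochondrial genome. They comprise 7 subunits of complex I, 1 of complex III, 3 of complex IV and 2 of complex V. The other 89 genes lie in the nucleus. Grouped by symbol, they comprise 38 complex I subunits, 8 complex I assembly factors (Ndufaf), 8 complex III subunits, 18 complex IV subunits and 17 complex V subunits. By this rule Ndufa4 and Ndufa4l2 are counted with complex I throughout. The rule drops Ndufb1-ps, and it does not take complex II.

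The data are single-nucleus RNA sequencing (snRNA-seq) of prefrontal cortex (PFC) from male mice 6 to 8 weeks old, with 1 library for each of 3 groups. The first was wild-type C57BL/6 (C57BL/6J in the study's methods, and so named here), a pool of 5 mice. The second was a Nav1 KO on the same strain background, homozygous for a CRISPR deletion in exon 1 of Nav1 (neuron navigator 1) and pooled from 4 mice. The third was the inbred strain BTBR T<+> Itpr3<tf>/J (BTBR), for which neither genotype nor number of mice is given in the sources used here. The C57BL/6J and Nav1 KO nuclei had been sorted so that about 60% carried the neuronal antigen NeuN, and the remaining 40% did not.

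Complexes I, III and IV pass electrons from nutrients to oxygen along the inner mitochondrial membrane and pump protons across it. Complex V, the ATP synthase, lets the protons flow back and makes ATP, and neurons depend on this supply to restore ion gradients after firing. Transcripts of mt- genes are made inside mitochondria and remain there, outside the nucleus, whereas transcripts of nuclear members are made in the nucleus and translated in the cytosol. A library of isolated nuclei therefore holds the former only as carried-over material, and the latter as both new nuclear RNA and carried-over cytosolic RNA.

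With at least 200 genes per nucleus and under 10% of its unique molecular identifiers (UMIs) from mt- genes, which are the study's limits, 14630 C57BL/6J, 14056 Nav1 KO and 14778 BTBR nuclei remained. They held 38704723, 50965774 and 48948184 UMIs, with medians of 2074, 2754 and 2510.5 per nucleus. Between 61 and 71 barcodes were shared by any pair of libraries. Nav1 was at 348, 266 and 147 counts per 1000000 UMIs (CPM), but 3′ tags from outside the deleted part check nothing about the KO. Nuclei were clustered without the 102 genes, and clusters were named from marker lists (excitatory neuron-like and so on). The labels call the samples neurons, yet glial and meningeal clusters were present, and so were clusters with markers of striatal medium spiny neurons and of olfactory bulb mitral or tufted neurons. Each group is 1 pooled library, so no difference between groups has a replicate check, no test was run, and the 95% intervals given cover counting error only.

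The nuclear members and the mt- genes did not move together across the libraries. The mt- genes took 0.780% of all UMIs in C57BL/6J (interval 0.777 to 0.783), 0.731% in the Nav1 KO (0.729 to 0.733) and 0.606% in BTBR (0.604 to 0.608). The 89 nuclear members, given as CPM of the UMIs that are not from mt- genes, summed to 3161 in C57BL/6J (3143 to 3179), 3425 in the Nav1 KO (3409 to 3442) and 3438 in BTBR (3421 to 3454). Over all nuclei, C57BL/6J thus had the highest mt- share and the lowest nuclear level. This order did not hold in each class. In BTBR the nuclear sum was 0.966-fold (0.941 to 0.991) that of C57BL/6J in inhibitory neuron-like and 0.971-fold (0.913 to 1.03) in astrocyte-like nuclei, and in Nav1 KO the mt- share was above that of C57BL/6J in oligodendrocyte precursor-like (0.951% against 0.912%), microglia-like (0.971% against 0.906%) and oligodendrocyte-like nuclei (1.15% against 1.06%). The libraries also differed in makeup, with 1679, 521 and 878 striatal medium spiny neuron-like nuclei. They differed in depth too, and values were also taken in nuclei of 1500 to 2500 UMIs, a band chosen afterwards. There the nuclear sum was 3152, 3911 and 3479 CPM in excitatory neuron-like nuclei of C57BL/6J, Nav1 KO and BTBR. In inhibitory neuron-like nuclei it was 5344, 5085 and 5091 CPM, highest in C57BL/6J. The part of depth in the differences between libraries was not tested. Relative to C57BL/6J and over all nuclei, the mt- share was 0.937-fold (0.932 to 0.941) in Nav1 KO and 0.777-fold (0.773 to 0.780) in BTBR, while the nuclear sum was 1.08-fold (1.08 to 1.09) and 1.09-fold (1.08 to 1.10). These folds share the C57BL/6J library. A mean nucleus held 20.6, 26.5 and 20.1 mt- UMIs and 8.30, 12.3 and 11.3 UMIs of nuclear members, in the same order of libraries.

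The summed ratios differed between some of the groups of members and were alike in others. In Nav1 KO over C57BL/6J the summed ratios were 1.10 for complex I subunits, 1.21 for complex I assembly factors, 1.07 for complex III, 1.09 for complex IV and 1.02 for complex V. In BTBR they were 1.06, 1.23, 1.17, 1.06 and 1.08. The counting intervals of complex I subunits and complex IV overlapped in Nav1 KO (1.09 to 1.11 and 1.07 to 1.11). They also overlapped in BTBR (1.05 to 1.07 and 1.04 to 1.08). The assembly factors, which build complex I and are not part of the finished enzyme, therefore had the highest summed ratio of the 5 groups in both comparisons. Gene by gene it was otherwise in Nav1 KO, where their median ratio was 0.983, with 4 of 8 above 1. That was the lowest median of the 5 groups (1.03 to 1.10 in the other groups). In BTBR their median was 1.12, with 7 of 8 above 1, and was the highest of the 5 groups (1.03 to 1.06 in the others). Other lists were spread around the same sizes. Cytosolic ribosomal protein genes had ratios of 0.939 and 0.980, mitochondrial ribosomal protein genes 1.09 and 1.18, glycolysis 1.08 and 1.17, the citrate cycle 1.09 and 1.16, and complex II 0.945 and 1.03. The nuclear lncRNA Malat1, which alone took 25.2%, 30.0% and 25.3% of the UMIs not from mt- genes, had ratios of 1.19 and 1.01. With Malat1 also taken out of the total, the nuclear sum of Nav1 KO over C57BL/6J was 1.16. The mt- share was taken of all UMIs only, Malat1 included, and its ratio without Malat1 was not computed. Malat1 had 9670077 UMIs in C57BL/6J and 15176725 in Nav1 KO, where the mt- genes had 301955 and 372487. The mt- ratio of 0.937 in Nav1 KO therefore holds for a total with Malat1 and cannot be read as less mt- RNA by other totals.

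The 10% limit bears directly on these genes, since it removes nuclei by their mt- share. It removed 770 C57BL/6J nuclei (5.00%, interval 4.66 to 5.36), 566 Nav1 KO nuclei (3.87%, 3.56 to 4.20) and 460 BTBR nuclei (3.02%, 2.75 to 3.30). These few nuclei held 51.5%, 41.0% and 43.3% of all mt- UMIs, although they held only 2.65%, 2.22% and 1.80% of all UMIs. They also held 12.8%, 9.99% and 11.8% of the UMIs of the nuclear members. Their median depth was 962.5, 1348 and 1309 UMIs, below that of the other nuclei in every library. Just inside the limit, at 8 to 10%, there were 81, 103 and 57 nuclei, and just outside it, at 10 to 12%, there were 53, 81 and 41. Without the limit, the mt- share was 1.57%, 1.21% and 1.05%, so its ratio to C57BL/6J moved to 0.774 for Nav1 KO and 0.669 for BTBR, whereas the nuclear sum moved only to 1.05 and 1.08.

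Within each library the nuclear members were higher in nuclei with a higher mt- share, with the largest step from the bin at 5 to 10% to the open-ended bin above it. In C57BL/6J nuclei under 0.25% mt-, the nuclear members summed to 2566 CPM, and the sum was 3307 at 0.5 to 1%, 4567 at 2 to 5%, 6260 at 5 to 10% and 24363 at 10% or more. In Nav1 KO the corresponding sums were 2795, 3677, 4975, 7374 and 21377. In BTBR they were 2892, 3750, 5041, 7889 and 33307. The level was thus higher in each of these bins than in the one before in all 3 libraries, by 2.44-, 2.64- and 2.73-fold from the lowest bin to 5 to 10%, and by 9.50-, 7.65- and 11.5-fold to the nuclei over the limit. Makeup moved with the bins, since excitatory neuron-like nuclei were 77.4%, 73.3% and 73.4% of the lowest bin and 5.32%, 11.1% and 3.04% of the highest. A cluster left unnamed, described below, was 7.01%, 8.09% and 11.2% of the bin at 5 to 10% and 81.3%, 58.1% and 81.7% of the highest. Depth, Malat1 and ribosomal protein transcripts moved too. Malat1 went from 26.1% to 14.1% of non-mt- UMIs in C57BL/6J, from 31.3% to 17.4% in Nav1 KO and from 26.8% to 9.55% in BTBR, and the part of each in the difference was not tested. Among excitatory neuron-like nuclei alone, the nuclear members went from 2441 CPM in the lowest bin to 6375 in the highest in C57BL/6J, from 2658 to 8307 in Nav1 KO and from 2753 to 7746 in BTBR. At 5 to 10% these nuclei had 4971, 5621 and 5935 CPM, so their last step was far smaller than that over all nuclei.

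**Figure D1:**
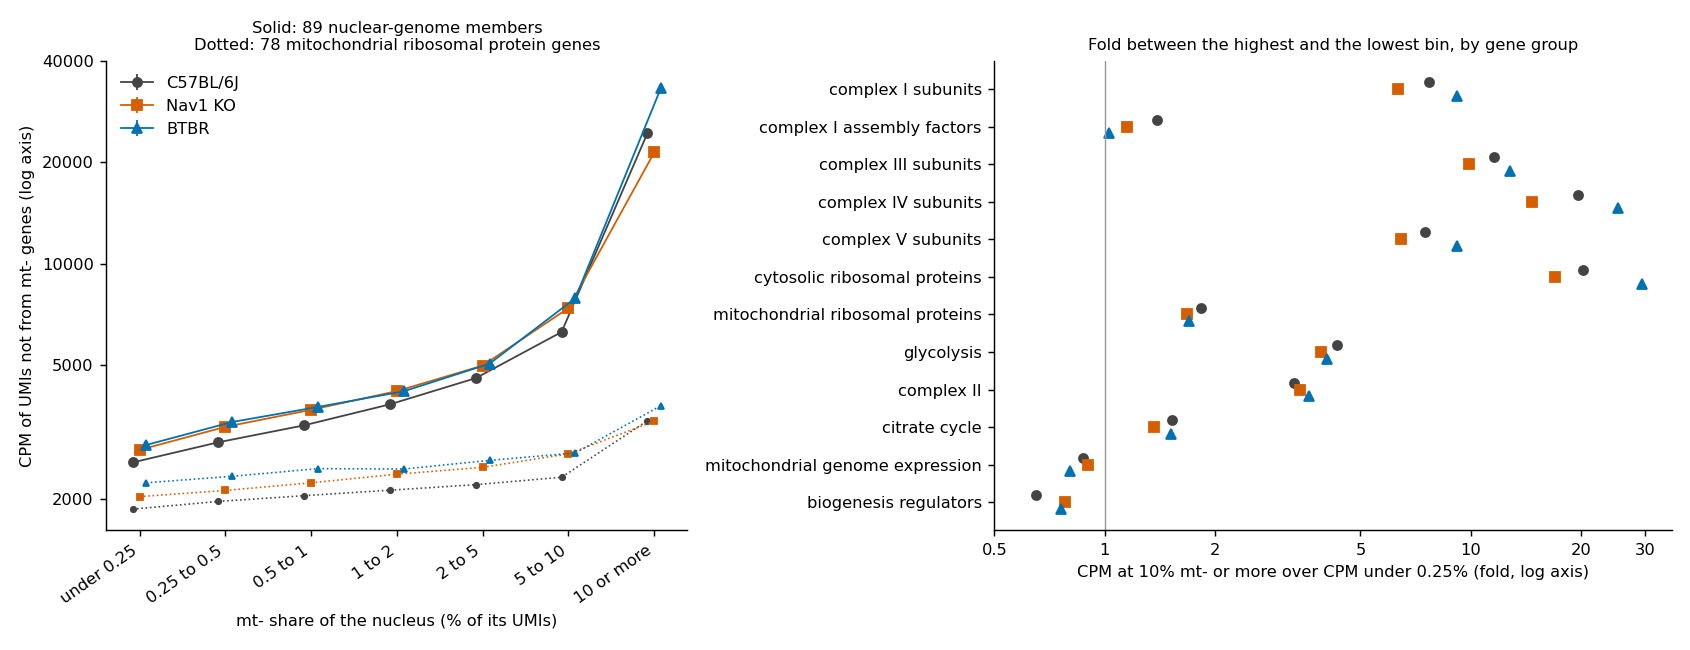
Left, CPM of the 89 nuclear members (solid lines, with 95% counting intervals) and of 78 mitochondrial ribosomal protein genes (dotted lines) in bins of nuclei by mt- share, per library, on a log axis. Right, the fold from the lowest to the highest bin for each gene group (log axis, 1 point per library), where complex IV subunits had folds of 19.6, 14.7 and 25.2 and complex I assembly factors 1.39, 1.15 and 1.03.

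The groups of members parted in this comparison. From the lowest to the highest bin, complex IV subunits were 19.6-fold higher in C57BL/6J, 14.7-fold in the Nav1 KO and 25.2-fold in BTBR. Complex III subunits were 11.6-, 9.92- and 12.8-fold higher, complex I subunits 7.71-, 6.33- and 9.16-fold, and complex V subunits 7.48-, 6.44- and 9.20-fold. The complex I assembly factors were only 1.39-, 1.15- and 1.03-fold higher. Cytosolic ribosomal protein genes had folds of 20.2, 17.0 and 29.4, close to those of complex IV. Mitochondrial ribosomal protein genes, whose products translate the mt- transcripts, had 1.83, 1.67 and 1.70. Among the other lists, glycolysis had 4.32, 3.91 and 4.04, cytochrome c with cytochrome c1 3.75, 3.41 and 3.95, complex II 3.29, 3.42 and 3.61, and the ADP and phosphate carriers with VDAC 3.19, 2.76 and 3.37. The citrate cycle had 1.52, 1.37 and 1.52. Genes of mitochondrial genome expression (0.871, 0.901 and 0.807), regulators of mitochondrial biogenesis (0.651, 0.781 and 0.762) and nuclear retained lncRNAs (0.522, 0.537 and 0.350) were lower in the highest bin.

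Gene by gene, nuclei at or over the limit were set against those under it. Of 86 nuclear members with at least 50 counts under the limit, 79 were over 1.5-fold higher in each of the 3 libraries and 1 was over 1.5-fold lower, where 16.7% of all 17584 genes were higher and 17.8% were lower. No count minimum was set over the limit, and some members passed there on few counts in C57BL/6J, Nav1 KO and BTBR. These include Cox7b2 (2, 2 and 7), Ndufa4l2 (3, 7 and 2), Cox6b2 (7, 9 and 6) and Cox6a2 (12, 9 and 4). The median fold of the members was 7.17, and that of all genes was 0.907. By group, 36 of 38 complex I subunits were higher (median fold 7.10), 4 of 8 assembly factors (1.77), 8 of 8 complex III subunits (8.51), 14 of 15 complex IV subunits (10.6) and 17 of 17 complex V subunits (5.73). The members that did not pass were Ndufs1, Ndufa10, Ndufaf4, Ndufaf5, Ndufaf6, Cox4i2 and Ndufaf7, of which Ndufaf7 was the one lower. Among the lists, 80 of 80 ribosomal protein genes passed as higher, 41 of 78 mitochondrial ribosomal protein genes, 12 of 16 glycolysis genes and 4 of 4 complex II genes, against 1 of 8 genes of mitochondrial genome expression and 0 of 6 biogenesis regulators. The short genes were not the only ones to pass. All 28 members spanning at most 5 kb were higher (median fold 8.92), where 640 of 2831 genes of that span were (1.02). Of the members spanning over 20 kb, 8 of 12 were higher (3.18), where 1157 of 9123 genes of that span were (0.831).

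Among members counted over the limit in all 3 libraries, Cox8a and Cox6a1, subunits of cytochrome c oxidase, had the highest geometric mean folds, and the assembly factor Ndufaf7 had the lowest. Cox4i2, which had 8, 1 and 0 counts over the limit, is not among these, nor are Cox8b and Cox8c. Cox8a was at 100.4, 112 and 107 CPM under the limit and at 2551, 2018 and 3495 over it in C57BL/6J, Nav1 KO and BTBR, which is 25.4-, 18.1- and 32.8-fold. Cox6a1 was at 29.8, 39.0 and 36.0 CPM under the limit and 659, 646 and 1042 over it. Every library had both genes at least an order of magnitude higher over the limit. Atp5e, a small subunit of the ATP synthase stalk, was 20.4-, 17.0- and 25.4-fold higher, and Uqcr11, a small complex III subunit, 20.7-, 15.5- and 27.2-fold. Atp5b, the catalytic beta subunit of the ATP synthase, was higher by less, at 513, 482 and 661 CPM over the limit against 137, 134 and 136 under it. Ndufaf7, which helps to build complex I, was at 88.6, 101 and 103 CPM under the limit and 54.7, 57.8 and 44.9 over it (40, 52 and 30 counts). Ndufaf4 was at 116, 163 and 158 CPM under the limit and 98.5, 131 and 79.3 over it, and Ndufa10 at 109, 145 and 148 under it and 105, 126 and 151 over it. These 3 genes were among the 10 nuclear members with the highest mean CPM under the limit (146, 134 and 97.4 for Ndufaf4, Ndufa10 and Ndufaf7), beside Atp5b, Cox7c, Cox8a, Atp5l, Cox6c, Cox4i1 and Atp5j2. Most barcodes over the limit, 1331 of 1796, lay in 1 cluster that was left unnamed, in which glial and ribosomal genes such as Aldoc, Mt1, Rplp1 and Rps29 led. Of the marker lists, that of astrocytes was highest in it, at a median fold of 4.49 over the other clusters. That cluster had 28049, 28716 and 33066 CPM of nuclear members when the limit was not applied. Its 39, 58 and 52 nuclei under the limit already had 15384, 18556 and 15606 CPM.

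**Figure D2:**
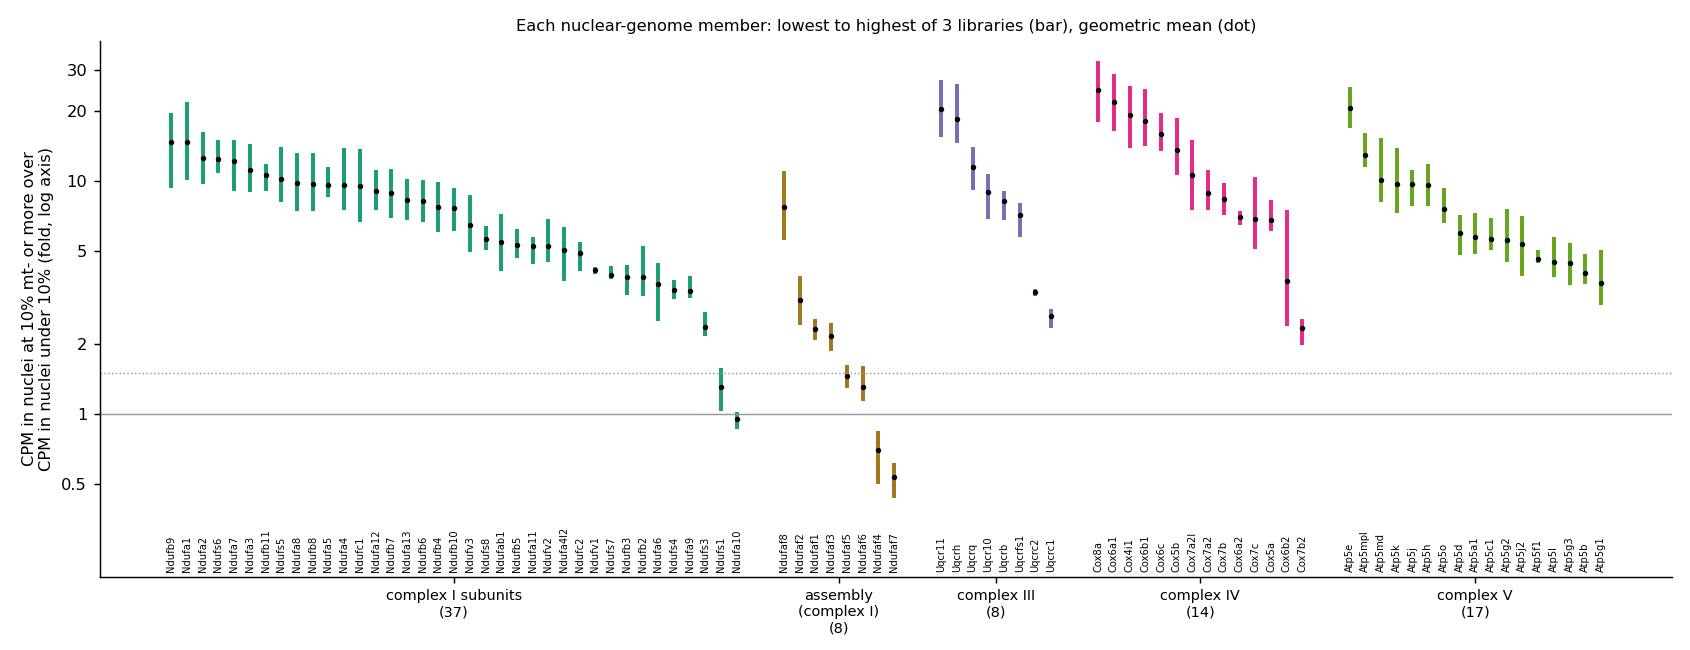
Fold of CPM in nuclei at 10% mt- or more over nuclei under 10% for 84 nuclear members (log axis), grouped by complex and sorted by geometric mean. Bars run from the lowest to the highest of the 3 libraries, dots are geometric means, and the dotted line marks 1.5-fold; Cox8a had 18.1 to 32.8, and Ndufaf7, the lowest, 0.436 to 0.618, while Cox4i2 is not drawn because it was listed at 0 over the limit in BTBR.

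Nuclear members are known to be controlled by factors that bind near the start of transcription, among them NRF1, YY1, GABPA and ESRRA. The RefSeq promoter table (GRCm38.p6, 250 bases before to 50 after each gene's start) held 73 of the 89 nuclear members, and exact letters were searched on both strands. GCGCATGCG, the core of the NRF1 motif, was in 10 of 73 members (13.7%) and in 1.95% of 27025 genes. AAGATGGCG (YY1) was in 8 members (11.0%) and 1.64% of genes, CCGGAAGT (GABPA) in 5 (6.85%) and 4.31%, and TCAAGGTCA (ESRRA) in 1 (1.37%) and 0.466%. At least 1 of the 4 was in 23 members (31.5%) and 7.93% of genes, with Uqcr11 holding both the NRF1 and the GABPA letters. In cytosolic ribosomal protein genes GABPA was the most frequent of the 4, in 12 of 64 (18.8%). A match in letters is a description and not a bound site. Promoters are shown for the members whose levels differed most between nuclei over and under the limit, which were chosen after their values were seen. Cox6a1 had the highest geometric mean fold of the members with the NRF1 letters and Ndufs6, an iron-sulfur fragment subunit of complex I at 12.04-, 10.8- and 15.0-fold, the highest of those with the YY1 letters. Cox8a had the highest geometric mean fold of the members counted over the limit in all 3 libraries and holds the GABPA letters as reverse complement at 2 places. Ndufaf7, with the lowest of these folds, holds none of the 4. Other members went the other way. Ndufaf4 and Ndufaf5, which were not past 1.5-fold in each library, hold the NRF1 letters, and Atp5e and Cox6b1, with high folds, hold none of the 4. Whether the letters go with the fold was not tested. Each line runs 5′ to 3′ along the gene's strand, with the motif in capitals (in Cox6a1 a match on each strand, overlapping). Cox6a1 is chr5:115348909-115349208, minus strand, Ndufs6 is chr13:73328433-73328732, minus strand, Cox8a is chr19:7217567-7217866, minus strand, and Ndufaf7 is chr17:78936885-78937184, plus strand.
Cox6a1: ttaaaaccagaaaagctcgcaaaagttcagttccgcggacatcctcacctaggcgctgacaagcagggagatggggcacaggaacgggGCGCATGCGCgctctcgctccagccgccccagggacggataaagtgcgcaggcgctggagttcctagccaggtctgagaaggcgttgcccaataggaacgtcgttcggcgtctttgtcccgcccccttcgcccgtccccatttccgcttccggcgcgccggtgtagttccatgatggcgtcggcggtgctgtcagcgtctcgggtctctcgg
Ndufs6: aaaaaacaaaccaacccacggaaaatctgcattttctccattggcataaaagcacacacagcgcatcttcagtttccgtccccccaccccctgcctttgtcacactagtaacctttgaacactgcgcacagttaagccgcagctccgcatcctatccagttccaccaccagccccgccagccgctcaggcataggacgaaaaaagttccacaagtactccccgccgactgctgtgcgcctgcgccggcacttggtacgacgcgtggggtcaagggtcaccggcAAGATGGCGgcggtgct
Cox8a: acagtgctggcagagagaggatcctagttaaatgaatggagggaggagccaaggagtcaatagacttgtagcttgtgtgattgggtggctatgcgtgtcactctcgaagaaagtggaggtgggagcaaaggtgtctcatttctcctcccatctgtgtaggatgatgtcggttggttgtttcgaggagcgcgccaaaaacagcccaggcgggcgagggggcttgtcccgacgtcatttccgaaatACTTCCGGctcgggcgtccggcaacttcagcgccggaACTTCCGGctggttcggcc
Ndufaf7: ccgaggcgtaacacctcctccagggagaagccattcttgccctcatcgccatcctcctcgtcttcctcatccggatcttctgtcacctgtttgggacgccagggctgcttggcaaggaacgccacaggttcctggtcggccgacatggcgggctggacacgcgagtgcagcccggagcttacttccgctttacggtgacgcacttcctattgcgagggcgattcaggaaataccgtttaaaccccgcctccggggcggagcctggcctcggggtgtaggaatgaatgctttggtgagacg

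Cell classes differed in both genomes' members, and inhibitory neuron-like nuclei had the highest nuclear level of the 10 named classes in every library. All class values are of nuclei under the limit. The nuclear members summed to 5203, 5259 and 5024 CPM in inhibitory neuron-like nuclei of C57BL/6J, Nav1 KO and BTBR (915, 1278 and 1671 nuclei). In excitatory neuron-like nuclei they summed to 2911, 3051 and 3120 (9880, 8056 and 9044 nuclei). The ranges did not overlap, and the ratio of inhibitory to excitatory was 1.79, 1.72 and 1.61 (mean 1.71 ± 0.0896, SD over 3 libraries). Astrocyte-like nuclei had 3953, 4445 and 3840 CPM, with ratios of 1.36, 1.46 and 1.23 to excitatory neuron-like nuclei (mean 1.35 ± 0.113). Meningeal fibroblast-like nuclei had 3745, 4155 and 4025 CPM. Oligodendrocyte precursor-like nuclei (3351, 3600 and 3615), oligodendrocyte-like nuclei (3345, 3748 and 3633), microglia-like nuclei (3264, 3579 and 3490) and striatal medium spiny neuron-like nuclei (3180, 3370 and 3339) followed closely on each other. Olfactory ensheathing glia-like nuclei had 4452, 3347 and 3657 CPM and mitral or tufted neuron-like nuclei 2595, 3620 and 3661, but C57BL/6J held only 14 and 28 such nuclei. Excitatory neuron-like nuclei came from 3 clusters, of which the one numbered 0 held the most in C57BL/6J (5218 nuclei) and BTBR (3372) and the one numbered 1 the most in Nav1 KO (3478).

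For the mt- genes the order of classes was another. Meningeal fibroblast-like nuclei, of the membranes around the brain, had mt- shares of 1.76%, 1.65% and 1.60%. Olfactory ensheathing glia-like nuclei had 2.44%, 1.51% and 1.06%, so they were above these in C57BL/6J, from only 14 nuclei there. Astrocyte-like nuclei had 1.39%, 1.36% and 1.07%, and inhibitory neuron-like nuclei 1.21%, 1.19% and 1.00%. Excitatory neuron-like nuclei were low, at 0.665%, 0.504% and 0.446%, and striatal medium spiny neuron-like nuclei were next to them at 0.757%, 0.607% and 0.417%. Oligodendrocyte-like nuclei had 1.06%, 1.15% and 0.764%, and oligodendrocyte precursor-like nuclei 0.912%, 0.951% and 0.828%. Microglia-like nuclei had 0.906%, 0.971% and 0.573%, and mitral or tufted neuron-like nuclei 0.801%, 0.689% and 0.581%. Against excitatory neuron-like nuclei the mt- ratio was 1.82, 2.37 and 2.24 for inhibitory neuron-like nuclei and 2.09, 2.70 and 2.40 for astrocyte-like nuclei. In both classes it was above the nuclear ratio in each library, though only narrowly for inhibitory neuron-like nuclei of C57BL/6J (1.82 against 1.79). The mt- share of BTBR was the lowest of the 3 libraries in all of the classes named in this paragraph.

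Depth differed between the classes, with medians of 2169.5, 3203 and 2757 UMIs in excitatory neuron-like, 1724, 1882.5 and 1694 in inhibitory neuron-like and 1046, 1426 and 1449 in astrocyte-like nuclei. The ratios were therefore taken again in nuclei of 1500 to 2500 UMIs, a band chosen after the data were seen. Inhibitory over excitatory was then 1.70, 1.30 and 1.46 for the nuclear members and 1.73, 2.04 and 1.98 for mt-. The astrocyte-like ratio of nuclear members was 1.07, 0.985 and 1.11, on both sides of 1, and that of mt- was 1.48, 2.23 and 1.97. Slc17a7, a glutamate transporter of excitatory neurons, was at 693, 792 and 861 CPM in excitatory neuron-like nuclei. It was also counted in other classes, at 138, 143 and 122 in astrocyte-like and 101, 113 and 153 in inhibitory neuron-like nuclei. In oligodendrocyte precursor-like nuclei it was at 424 to 449, in microglia-like at 394, 425 and 561 and in striatal medium spiny neuron-like at 352, 429 and 474. Whether these counts came from free RNA or from doublets was not tested. The part of such RNA in the class values was not tested.

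**Figure D3:**
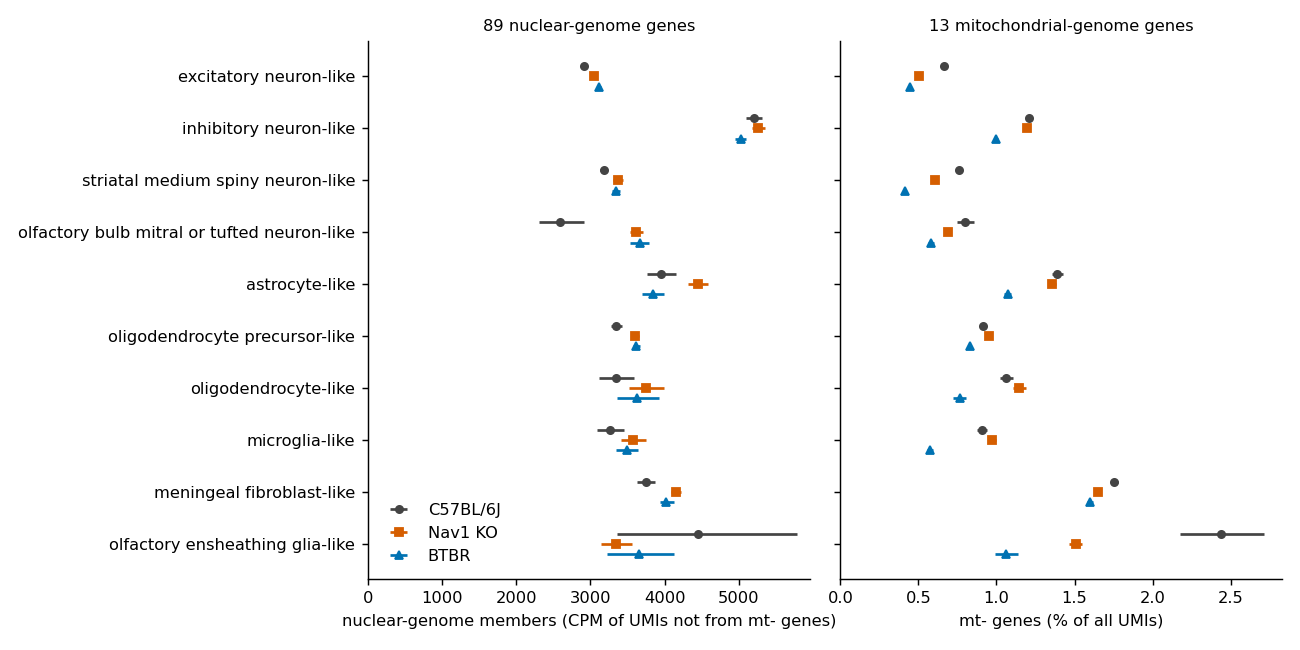
Level of the 89 nuclear members (left, CPM of UMIs not from mt- genes) and of the 13 mt- genes (right, % of all UMIs) in 10 named classes of nuclei under the 10% limit, 1 point per library with its 95% counting interval. Inhibitory neuron-like nuclei lie at 5024 to 5259 CPM on the left, and meningeal fibroblast-like nuclei at 1.60 to 1.76% on the right.

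Gene by gene, inhibitory neuron-like nuclei stood out. Kinds of inhibitory nuclei differed in number between the libraries. In a finer clustering with no mt- limit, a cluster led by Vip held 383, 174 and 492 nuclei in C57BL/6J, Nav1 KO and BTBR. Others are given below with Cox6a2. The part of this makeup in the class values, and in library ratios within the class, was not tested. Of 82 nuclear members with at least 50 counts in both classes, 56 were over 1.5-fold higher than in excitatory neuron-like nuclei in each of the 3 libraries and 0 were lower, where 12% of all genes were higher and 3.93% were lower. The median ratio was 1.85 for the members and 1.14 for all genes. The summed ratios were 1.95, 1.83 and 1.76 for complex IV, 1.87, 1.77 and 1.65 for complex I subunits, 1.87, 1.77 and 1.62 for complex III, and 1.77, 1.78 and 1.61 for complex V. The assembly factors had 1.10, 1.20 and 1.17, and the lowest single ratios were those of 4 assembly factors and a subunit, Ndufaf3 (1.03), Ndufaf6 (1.04), Ndufaf4 (1.13), Ndufa10 (1.15) and Ndufaf7 (1.16). Cytosolic ribosomal protein genes had 1.66, 1.72 and 1.59, and mitochondrial ribosomal protein genes 1.26, 1.22 and 1.23.

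Cox6a2, the form of complex IV subunit 6a known from heart and skeletal muscle, had the highest ratio. It was at 17.8, 8.25 and 2.11 CPM in inhibitory neuron-like nuclei of C57BL/6J, Nav1 KO and BTBR and at 1.22, 0.718 and 0.767 in excitatory neuron-like nuclei, from 61 and 77 counts. The inhibitory level was the higher in each library, but it ranged from 31 counts in C57BL/6J to 7 in BTBR. Ndufa4, a small protein first assigned to complex I and later found with complex IV, was at 125, 125 and 103 CPM in inhibitory and 47.8, 49.5 and 45.5 in excitatory neuron-like nuclei. Cox5a, a subunit on the matrix side of complex IV, was at 91.1, 77.5 and 80.7 against 32.2, 35.2 and 40.0, and Ndufs5 at 53.3, 46.3 and 43.3 against 21.4, 20.2 and 20.2. None of these 3 pairs of ranges overlapped. Ndufb11 was the fifth of the highest ratios, at 2.27.

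In the other classes few members passed, and the background share was mostly higher. In astrocyte-like nuclei 7 of 63 members were over 1.5-fold higher in each library (20.8% of all genes) and 0 were lower (15.3%), with Ndufs5 (3.66), Ndufc2 (2.53) and Ndufb11 (2.31) highest and Ndufa10 (0.623), Ndufaf7 (0.647), Ndufb5 (0.905), Uqcrc1 (0.946) and Atp5l (0.986) lowest. Ndufa7 (2.18) and Atp5mpl (1.98) were the next highest. The median ratio was 1.45 for the members and 1.03 for all genes. Among the meningeal fibroblast-like nuclei 11 of 80 were higher (18.9% of all genes) and 0 lower (9.60%), among oligodendrocyte precursor-like nuclei 3 of 82 (11.8%) and 0 (1.28%), and among oligodendrocyte-like nuclei 1 of 10, Cox4i1 (27.7%), and 0 (10.5%). In oligodendrocyte-like nuclei the ratios over all libraries ran from 2.13 for Ndufc2, 1.86 for Cox4i1 and 1.67 for Cox6c down to 0.911 for Ndufaf4 and 0.895 for Atp5l, and Ndufc2 was at 3.04, 2.00 and 0.932 in the 3 libraries, on both sides of 1. In microglia-like nuclei 0 of 40 were higher (6.83% of all genes) and 0 lower (0.217%), and in mitral or tufted neuron-like nuclei 0 of 71 (8.12%) and 0 (4.69%). In striatal medium spiny neuron-like nuclei 0 of 81 were higher, where 4.24% of all genes were.

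Several complex IV subunits have more than 1 gene for the same position, and some of these forms were rare in PFC and unevenly spread over the clusters. In a finer clustering, Cox4i2, a form of subunit 4 known from lung and as oxygen sensitive, and Ndufa4l2, a paralog of Ndufa4 known to respond to hypoxia, were both highest in 1 vascular cluster of 220 nuclei led by Ly6c1, Rgs5, Flt1 and Cldn5. That cluster held 24 of the 51 counts of Cox4i2 and 41 of the 130 counts of Ndufa4l2. In its 80 nuclei with more pericyte than endothelial marker UMIs, Cox4i2 was at 99.1 CPM (interval 55.5 to 163, 15 counts) and Ndufa4l2 at 231 CPM (161 to 322, 35 counts). In its 138 nuclei with more endothelial marker UMIs they were at 31.3 (14.3 to 59.4, 9 counts) and 20.8 CPM (7.65 to 45.4, 6 counts), and in the 43244 other nuclei at 0.197 and 0.649 CPM. The common forms were far less uneven, with Cox4i1 at 178, 261 and 92.3 CPM and Ndufa4 at 139, 135 and 55.9 CPM in the same 3 sets. The split by marker UMIs was made on these libraries pooled, and the other nuclei still held 27 counts of Cox4i2 and 89 of Ndufa4l2.

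Cox6a2 was at 10.3 CPM (63 counts) in a fine cluster of 1761 nuclei led by Sst and Lhx6, markers of interneurons. Within it, 159 nuclei with a Pvalb UMI and no Sst UMI had 17.1 CPM (8.19 to 31.4, 10 counts) and 839 nuclei with an Sst UMI and no Pvalb UMI had 4.25 CPM (2.27 to 7.28, 13 counts), while all nuclei outside the cluster had 1.05 CPM (0.882 to 1.24), from 138 of the 201 counts. Cox6a1, the common form, was at 44.4, 46.5 and 35.1 CPM in these sets. Most of the cluster's 63 counts of Cox6a2 lay in its other nuclei, with UMIs of both markers or of neither, whose level is not given here. Cox6b2, a form of subunit 6b known from testis, was highest in fine clusters of meningeal fibroblast-like nuclei, at 52.6, 32.8 and 30.6 CPM in 3 of them. In meningeal fibroblast-like nuclei as a whole it was at 19.3, 30.0 and 31.5 CPM in C57BL/6J, Nav1 KO and BTBR. Cox7a1, Cox8b and Cox8c had 34, 6 and 4 counts in all, too few for a comparison of classes. Cox7b2, with 298 counts, was spread widely, at 4.82 CPM in its highest fine cluster and a median of 2.26 CPM over the clusters. The common forms at the same positions were at 27.1, 28.9 and 28.9 CPM for Cox6b1, 51.2, 46.6 and 65.6 for Cox7a2, 31.1, 31.8 and 32.5 for Cox7b and 100.4, 112 and 107 for Cox8a in C57BL/6J, Nav1 KO and BTBR.

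Between whole libraries, few nuclear members were past 1.5-fold. Of 85 members with at least 50 counts in Nav1 KO and C57BL/6J together, 3 were higher in Nav1 KO (10.4% of 16733 genes) and 2 were lower (7.36%). Of 85 in BTBR and C57BL/6J, 5 were higher in BTBR (12.2% of 16673 genes) and 1 was lower (8.47%). The shares of members were below those of all genes in each direction. The median ratio was 1.07 for the members and 0.971 for all genes in Nav1 KO, and 1.06 and 1.03 in BTBR, and 56 and 60 of the 85 members had a ratio over 1 (45.5% and 54.9% of all genes). The counting interval lay above 1 for 37 members and below 1 for 16 in Nav1 KO, and above for 32 and below for 15 in BTBR. The same count was not made for all genes, so these counts cannot be read as a trait of the members. Both comparisons share the C57BL/6J library.

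Complex III held a pair of the members past the fold. Uqcrfs1, the Rieske iron-sulfur protein of complex III, was at 12.4 CPM in C57BL/6J, 22.3 in the Nav1 KO and 19.8 in BTBR, so C57BL/6J was the low library and the ratios were 1.80 (1.61 to 2.00) and 1.60 (1.43 to 1.79). Within excitatory neuron-like nuclei the ratios were 1.71 and 1.66, within oligodendrocyte precursor-like nuclei 2.08 and 1.57, and within striatal medium spiny neuron-like nuclei 2.12 and 1.60. In inhibitory neuron-like nuclei they were 1.21 (0.860 to 1.71) and 1.04 (0.744 to 1.47), and in meningeal fibroblast-like nuclei 1.53 (0.958 to 2.57) and 1.11 (0.638 to 1.98), with 1 inside all 4 intervals. Uqcrc2, a core protein of complex III, was at 27.3, 23.4 and 49.2 CPM, high in BTBR alone. Its BTBR ratio was 1.80 (1.67 to 1.94) over all nuclei, 1.83 in excitatory and 1.72 in inhibitory neuron-like nuclei, 1.47 in oligodendrocyte precursor-like and 1.23 in meningeal fibroblast-like nuclei.

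Atp5g2, 1 of the genes that encode the membrane ring subunit c of the ATP synthase, had a high BTBR ratio. It was at 31.2 CPM in C57BL/6J (29.5 to 33.0), 41.9 in the Nav1 KO (40.2 to 43.7) and 79.9 in BTBR (77.4 to 82.4), with ratios of 1.34 and 2.56 to C57BL/6J. BTBR was high in each class looked at, with ratios of 2.57 in excitatory neuron-like, 2.22 in inhibitory neuron-like, 2.48 in oligodendrocyte precursor-like, 2.71 in striatal medium spiny neuron-like, 2.11 in meningeal fibroblast-like and 1.66 in astrocyte-like nuclei. Among excitatory neuron-like nuclei it was at 28.6 CPM in C57BL/6J and 73.4 in BTBR. Atp5g1 (59.1, 57.5 and 62.4 CPM) and Atp5g3 (40.4, 44.5 and 47.9), the other genes for subunit c, had BTBR ratios of 1.06 (0.999 to 1.12) and 1.19 (1.11 to 1.26).

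The other members past the fold were rare forms of complex IV subunits and Ndufa4l2. Cox6b2 was at 1.28, 4.19 and 3.06 CPM (49, 212 and 149 counts) in C57BL/6J, Nav1 KO and BTBR, low in C57BL/6J, with ratios of 3.28 (2.40 to 4.58) and 2.40 (1.73 to 3.39). Meningeal fibroblast-like nuclei, where this form was highest, numbered 590, 1391 and 867 in the 3 libraries, and within them the ratios were 1.55 (0.961 to 2.64) and 1.63 (0.963 to 2.87), with 1 inside both intervals. Cox7b2 was at 1.38, 0.870 and 4.13 CPM, high in BTBR. Its Nav1 KO ratio was 0.630 (0.413 to 0.958) over all nuclei, a difference no longer past 1.5-fold with Malat1 left out of the total, and 0.773 (0.475 to 1.26) in excitatory neuron-like nuclei. Its BTBR ratio was 2.99 over all nuclei and 2.48 (1.69 to 3.71) in excitatory neuron-like nuclei. Cox6a2 was at 2.29, 1.34 and 0.925 CPM (88, 68 and 45 counts), high in C57BL/6J, with ratios of 0.587 (0.421 to 0.814) and 0.404 (0.275 to 0.584). In inhibitory neuron-like nuclei its ratios were 0.464 (0.259 to 0.823) and 0.119 (0.0441 to 0.275). Kinds of inhibitory nuclei differed in number between the libraries, in the fine clustering with no mt- limit. The cluster led by Sst and Lhx6 held 622, 509 and 639 nuclei in C57BL/6J, Nav1 KO and BTBR. An inhibitory neuron-like cluster led by Adamts19, Vipr2 and Pbx3 held 106, 646 and 570. The part of this makeup in the Cox6a2 ratios was not tested. Ndufa4l2, with 29, 62 and 39 counts, was at 1.62 (1.03 to 2.62) in Nav1 KO, and the vascular cluster where it was highest held 47, 103 and 70 nuclei in the 3 libraries. Among excitatory neuron-like nuclei alone, Uqcrfs1 and Cox6a2 were past the fold in Nav1 KO, and Atp5g2, Cox7b2, Uqcrc2, Uqcrfs1 and Cox6a2 in BTBR.

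Apart from Ndufa4l2, the members grouped with complex I differed by less. Of the genes with at least 50 counts in each library, Ndufaf4 (1.40 and 1.36), Ndufaf3 (1.34 and 1.36) and Ndufa6 (1.40 and 1.27) were among the highest ratios in Nav1 KO and BTBR. Ndufaf4 was at 116 CPM in C57BL/6J, 163 in the Nav1 KO and 158 in BTBR, low in C57BL/6J. Ndufb9 was at 41.6, 57.6 and 48.7 CPM, with a ratio of 1.38 (1.30 to 1.47) in Nav1 KO. Ndufaf6, another assembly factor, was at 11.0, 8.22 and 7.85 CPM, high in C57BL/6J, and its ratios were 0.745 (0.649 to 0.855) and 0.711 (0.618 to 0.819). The assembly factors Ndufaf5 (0.715) and Ndufaf1 (0.790) were low in Nav1 KO, and at 1.08 and 1.03 in BTBR. Ndufs1, the largest iron-sulfur subunit, was at 66.5, 52.8 and 56.1 CPM. The lowest ratios of BTBR further held Cox7a2l (0.869), Ndufab1 (0.872), the mitochondrial acyl carrier protein, and Ndufc2 (0.899). Assembly factors were thus found at both ends, and their most counted genes were Ndufaf4 and Ndufaf7 (1.14 and 1.16).

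**Figure D4:**
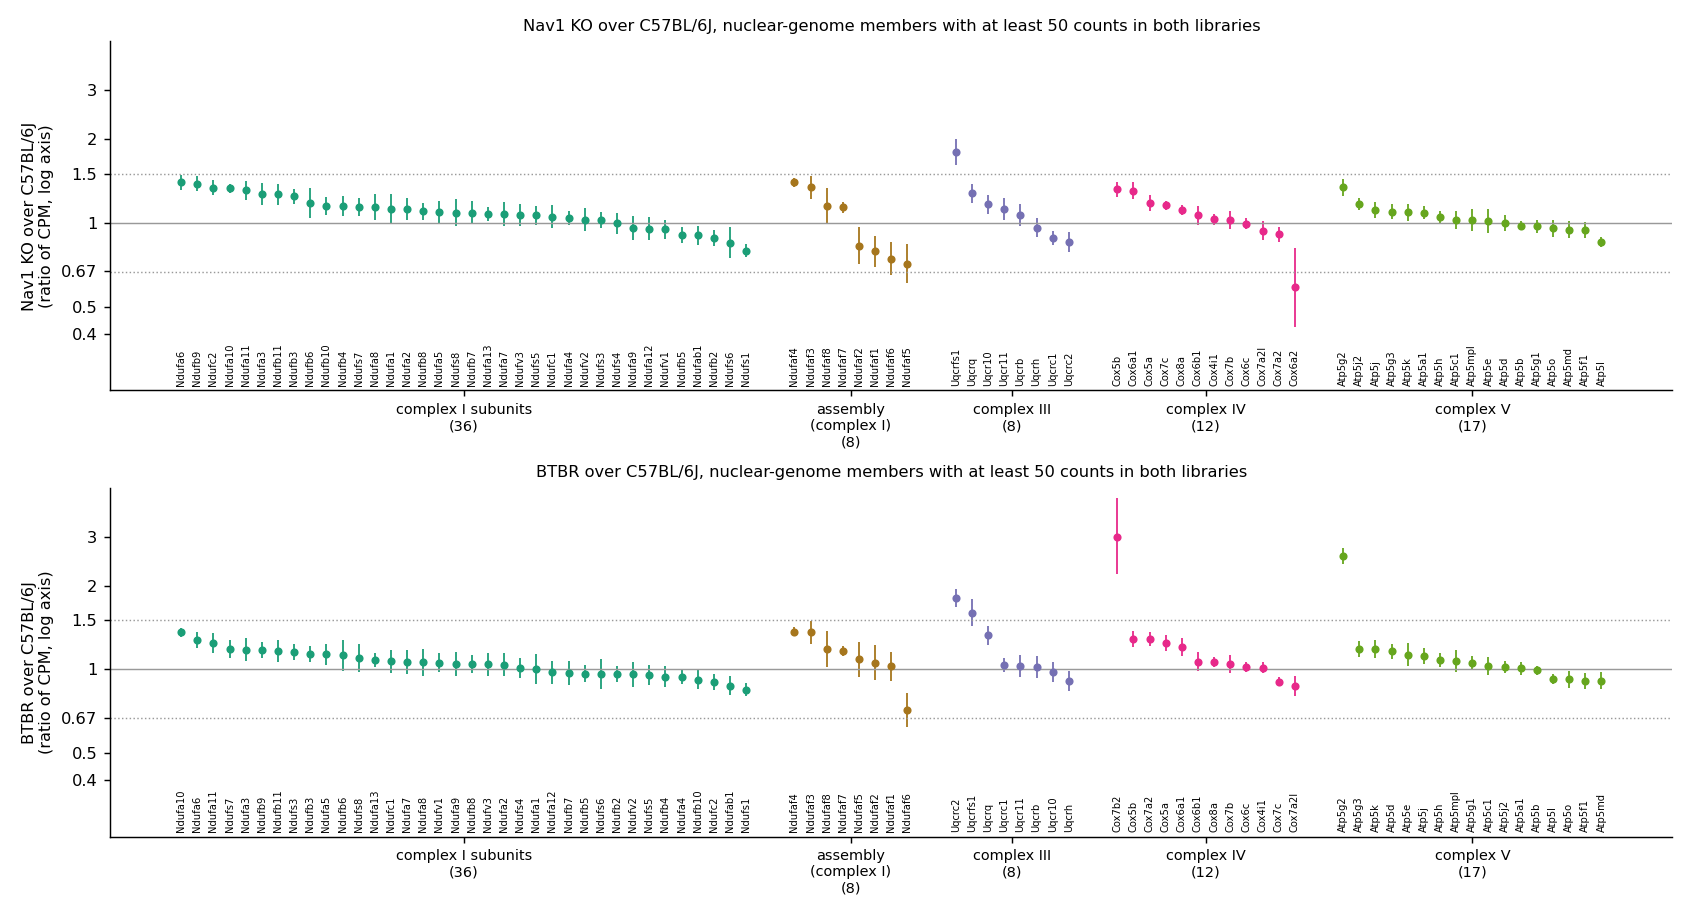
Ratio of CPM of Nav1 KO (top) and BTBR (bottom) to C57BL/6J for 81 of the nuclear members with at least 50 counts in both libraries (log axis), grouped by complex and sorted by ratio, with 95% counting intervals. Dotted lines mark 1.5-fold either way; Uqcrfs1 at 1.80 is the highest in the top panel, and Cox7b2 at 2.99 and Atp5g2 at 2.56 are the highest in the bottom panel.

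The other lists of the pathway had between 0 and 2 genes past 1.5-fold, where 17.8% of all genes were past it either way in Nav1 KO and 20.6% in BTBR. In Nav1 KO these were 2 of 8 genes of mitochondrial genome expression (Polrmt and Lrpprc), 1 of 16 of glycolysis (Pfkm) and 1 of 8 nuclear retained lncRNAs (Mirg), and 0 of 4 of complex II, 0 of 13 of the citrate cycle, 0 of 6 carriers, 0 of 2 cytochromes and 0 of 6 biogenesis regulators. In BTBR they were 1 of 4 of complex II (Sdhb), 2 of 13 of the citrate cycle (Idh3b and Suclg2) and 1 of 8 of mitochondrial genome expression (Polrmt), with 0 in carriers, cytochromes, biogenesis regulators, glycolysis and lncRNAs. The median ratio of glycolysis was 1.11 in the Nav1 KO and 1.27 in BTBR. Of 80 ribosomal protein genes, 0 were past the fold in the Nav1 KO and 5 in BTBR.

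The 13 mt- genes are transcribed as long RNAs from both strands of the circular mitochondrial genome and then cut apart, so their shares of the mt- UMIs were compared. Neighbours overlap at 3 places on the heavy-strand transcript, and at these a tag cannot always be given to 1 gene. On chrM of mm10, mt-Atp8 lies at 7766 to 7969 and mt-Atp6 at 7927 to 8607, sharing 43 bases, and mt-Nd4l lies at 9877 to 10173 and mt-Nd4 at 10167 to 11544, sharing 7 bases. Both pairs are on the plus strand and are kept as 1 messenger RNA each. The first gene of each pair is shown whole, 5′ to 3′, with the shared bases in capitals, because their counts bear on the shares given here. A tag that lay within the capitals alone would fit both genes of its pair, and whether there were such tags was not examined.
mt-Atp8: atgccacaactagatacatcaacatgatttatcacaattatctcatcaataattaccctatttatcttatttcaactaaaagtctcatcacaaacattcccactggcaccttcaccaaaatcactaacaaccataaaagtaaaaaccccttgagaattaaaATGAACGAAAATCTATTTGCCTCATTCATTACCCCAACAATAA
mt-Nd4l: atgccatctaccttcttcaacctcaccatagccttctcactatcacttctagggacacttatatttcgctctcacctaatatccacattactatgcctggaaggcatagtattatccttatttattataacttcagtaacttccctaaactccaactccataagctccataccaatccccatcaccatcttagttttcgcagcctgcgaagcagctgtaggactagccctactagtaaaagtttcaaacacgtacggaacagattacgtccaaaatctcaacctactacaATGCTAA

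The pairs were counted very unequally. There were 149, 162 and 115 UMIs of mt-Atp6 for each of mt-Atp8 in C57BL/6J, Nav1 KO and BTBR, and 13.1, 19.8 and 16.6 UMIs of mt-Nd4 for each of mt-Nd4l. The only mt- gene of the light-strand side, mt-Nd6, was the least counted in all 3, at 0.128%, 0.0789% and 0.0705% of mt- UMIs.

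C57BL/6J differed from the other two libraries in how the mt- UMIs were divided. In nuclei under the limit, mt-Atp6, a proton channel subunit of the ATP synthase, took 20.3% of mt- UMIs in C57BL/6J, 14.8% in the Nav1 KO and 15.2% in BTBR, with ratios of 0.731 and 0.751. It was lower than in C57BL/6J in 10 of 10 named classes in both libraries. mt-Cytb, the cytochrome b of complex III, went the other way, at 12.2%, 16.1% and 14.7%, and mt-Nd1, a membrane subunit of complex I, at 6.02%, 7.44% and 7.85%, and each was higher in 10 of 10 classes in both. mt-Nd3, another complex I subunit, was at 1.99%, 1.60% and 0.911%, lower in 10 of 10 classes in both and lowest in BTBR, with ratios of 0.802 and 0.457. The classes of 1 library are not separate checks of these shares, since they come from the same pool of nuclei. The 10 classes include olfactory ensheathing glia-like nuclei, with only 14 nuclei and 314 mt- UMIs in C57BL/6J. The complex IV genes were closer, with mt-Co3 at 19.8%, 19.8% and 20.9%, mt-Co2 at 14.4%, 13.4% and 14.7% and mt-Co1 at 9.36%, 10.9% and 9.99%. So were mt-Nd2 (7.14%, 6.84% and 6.77%) and mt-Nd4 (7.04%, 7.62% and 7.41%).

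The nuclei over the limit, left out of the shares above, come from the same 3 libraries and are thus no separate check of them. The division was similar in direction among these nuclei. There mt-Atp6 took 20.01%, 16.0% and 16.4%, with ratios of 0.797 and 0.818, and mt-Nd3 1.67%, 1.53% and 0.995%, with ratios of 0.914 and 0.594. The ratios of mt-Cytb were 1.18 and 1.09 and those of mt-Nd1 1.14 and 1.19. For other genes the directions differed in part. mt-Nd2, a well counted gene, had ratios of 0.957 and 0.948 under the limit and 1.04 in both libraries over it, and mt-Co2 in BTBR had 1.02 and 0.999. mt-Atp8 in BTBR had a ratio of 0.969 under and 1.42 over the limit, mt-Nd6 in Nav1 KO 0.617 and 1.13, mt-Nd5 in BTBR 0.804 and 1.03, and mt-Nd4l in BTBR 0.830 and 1.03. Nav1 KO has the strain background of C57BL/6J, and BTBR is another strain. Each group is 1 library, so in neither can the shifts in mt- shares be told apart from differences between single libraries.

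**Figure D5:**
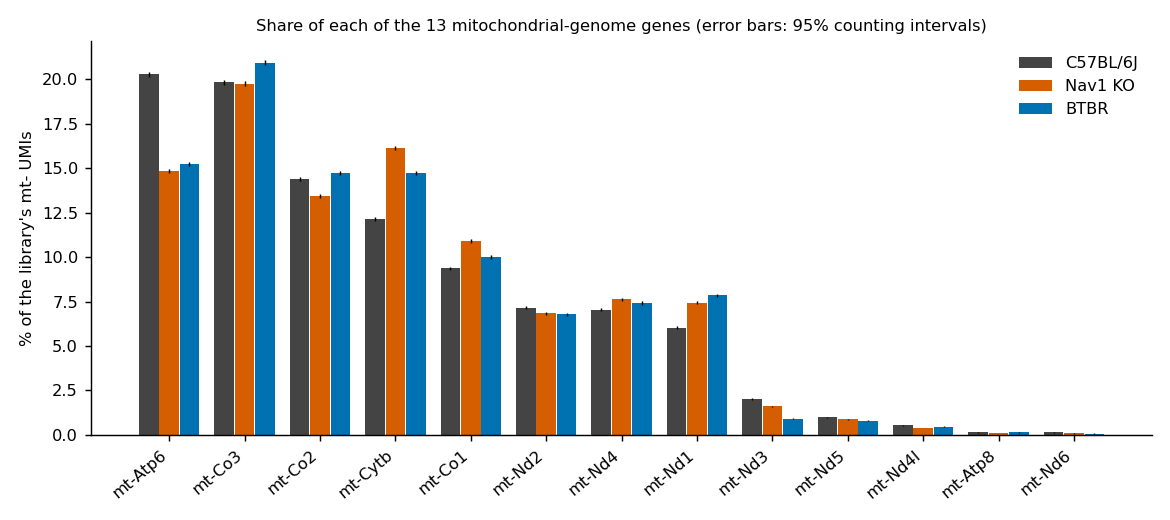
Share of each of the 13 mt- genes in the mt- UMIs of nuclei under the limit (linear axis from 0), 1 bar per library with 95% counting intervals. mt-Atp6 stands at 20.3% in C57BL/6J against 14.8% and 15.2%, and mt-Cytb at 12.2% against 16.1% and 14.7%.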

How the data were processed

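Nuclei were captured with 10x Genomics 3′ v3.1 chemistry. The authors processed the reads with Cell Ranger 6.0.0 on mm10 and deposited 1 filtered matrix of UMI counts per library, with 15402 (C57BL/6J), 14623 (Nav1 KO) and 15238 (BTBR) barcodes. Whether reads in introns were counted is not given in the sources used here. Barcodes with under 200 genes (3 in all) were removed, and the study's 10% mt- limit was applied except where stated. Nuclei were normalized and clustered in Seurat 5.3.0 (R 4.3.3; 2000 variable genes, 10 principal components, resolution 0.3, and 30 components at resolution 1 for the fine clusters) after the members had been removed from the counts. Clusters were named from marker lists. A cluster with at least 3 ribosomal protein genes among its 10 leading genes was left unnamed by rule, which held for 1 main cluster. Scrublet in scanpy 1.11.5 called 1 barcode of 45260, so it did not work as a doublet caller and none were removed. UMIs were summed per library and class in Python 3.11.15 (numpy 2.4.6, scipy 1.17.1, pandas 2.3.3). Nuclear members are CPM of UMIs not from mt- genes, and mt- genes are percent of all UMIs. Intervals are exact (Poisson, Clopper-Pearson or a binomial split for ratios, 95%) and cover counting error only. A gene was counted as past the fold at 1.5-fold with at least 50 counts. The calculation was tested on simulated data.

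The members, lists and marker genes were chosen with earlier results of these data known. Named were all mt- genes, the 10 nuclear members with the highest mean CPM, genes that share a subunit position, the 5 highest and 5 lowest ratios per library comparison (at least 50 counts in each library) and per inhibitory, astrocyte and oligodendrocyte contrast, and further genes chosen after their values were seen, namely those past the fold and those at either end in nuclei over the limit. By gene ID, 102 members matched GENCODE M21, and 29 nuclear members have an exon that overlaps an exon of another measured gene. Levels rest on 3′ tags, so levels of different genes were not ranked as transcript numbers. The values of 1 member are not reported here. Alternatives were no mt- limit, other totals (for nuclear members only), other count minimums and folds, means over nuclei, other clusterings, removal of nuclei with high doublet scores and a band of UMIs.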

Additional observations from a re-analysis of the deposited data

How the results depend on the processing

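In all, 74 alternative values of 14 results were computed. None of the ratios changed direction in the settings that were run, a check that cannot be made for the counts of members. Other totals were run for the nuclear members only, so the mt- share was not checked with Malat1 out of the total. Class ratios were judged as means of 3 libraries. In Nav1 KO alone, the astrocyte-like ratio of nuclear members went from 1.46 to 0.985 at 1500 to 2500 UMIs. Of the 74 values, 42 moved by less than the counting interval, the spread over libraries or 1.5 times a count. The other 32 are given here, and their cause was not tested. For the mt- share, Nav1 KO over C57BL/6J was 0.774 with no mt- limit, 0.899 as a mean over nuclei and 0.962 without the nuclei with the highest doublet scores, and BTBR over C57BL/6J was 0.669 with no limit and 0.814 without those nuclei. For the nuclear members, Nav1 KO over C57BL/6J was 1.05 with no limit, 1.14 as a mean over nuclei and 1.16 without Malat1 in the total. The ratio of the mt-Atp6 share was 0.759 in Nav1 KO and 0.781 in BTBR with no limit. The 5 members past 1.5-fold in Nav1 KO became 9 with no count minimum (34.9% of all genes), 2 with at least 200 counts (12.5%), 23 with a limit of 25% higher or the inverse (40.3%) and 2 in excitatory neuron-like nuclei (11.4%), and the 6 in BTBR became 14 with that limit (42.8%). Inhibitory over excitatory, as a mean of 3 libraries, was 1.84 as a mean over nuclei and 2.86 with 20 components for mt-, and 1.55 as a mean over nuclei, 1.49 at 1500 to 2500 UMIs and 1.58 without Malat1 for nuclear members. Astrocyte-like over excitatory was 3.73 with no limit, 1.99 as a mean over nuclei, 1.92 at resolution 0.5 and 1.90 at 1500 to 2500 UMIs for mt-, and 1.23 at resolution 0.5, 1.06 at 1500 to 2500 UMIs and 1.498 without Malat1 for nuclear members. The 56 members higher in inhibitory neuron-like nuclei of 82 tested (15.9% of all genes past the fold either way) became 36 of 69 with 20 components (17.4%), where only 759 nuclei were so named instead of 3864. The 7 members of 63 higher in astrocyte-like nuclei (36.1%) became 15 of 65 with 20 components (36.2%), 4 of 82 at resolution 0.5 (17.0%), where 3838 nuclei were so named instead of 1330, 11 of 63 with the members kept in the clustering (35.6%) and 14 of 47 without the BTBR library (41.9%). No paired analysis was possible because each group is 1 library, and no library could be left out of a comparison of groups for the same reason.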
